A study of Adonis amurensis with 6 samples.

Results

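Full bloom (FBS) was compared with early flowering (EFS) in the floral organs of *Adonis amurensis*, a perennial that grew in an open field and that flowers in early spring, before its leaves expand. Total RNA of floral organs was sequenced at 6 stages, with 1 library per stage, so each stage is a single sample and no spread between samples could be measured. The other stages, whose levels are given beside some genes, are the young alabastrum (YA), visible color alabastrum (VCA) and senescing flower (SFS), and flower bud differentiation (FBD), the earliest. How many plants or flowers went into a library is not given in the sources used here. No test was possible, and every ratio below describes these 2 libraries.

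The deposited table lists 190353 unigenes, which are assembled transcripts, with their FPKM values, fragments normalized for transcript length and for the mapped reads of the library. The assembly has no reference genome, and 68906 unigenes carry an *Arabidopsis* locus number as their match among eukaryotic ortholog groups (KOG). The FPKM of unigenes with the same locus were summed, which gave 11934 loci. The comparison covers the 7688 loci with a sum of 5 or more in FBS or EFS. Ratios are differences of log2(sum + 0.1), so that they understate the change of loci near 0. A locus is called higher or lower here at a ratio of 2-fold or more. Gene names and functions are those of the matched proteins in other species, mainly in Swiss-Prot, and KEGG or KOG names differ for some loci.

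A flower opens as petal cells take up water and loosen and rebuild their walls, while cell division has mostly ended in the petals. Anthers release pollen, scent and pigment compounds are made in petal cells, and hormones such as ethylene, auxin and jasmonate time these steps. Full bloom is followed by senescence, when proteins and nucleic acids of the petals are broken down and their parts are moved elsewhere.

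Most loci had similar levels at full bloom and at early flowering. Of the 7688 loci, 718 (9.34%) were 2-fold or more higher in FBS, 882 (11.5%) were 2-fold or more lower, and 6088 (79.2%) lay in between. At 8-fold or more, 94 loci were higher and 112 were lower. The median log2 ratio was -0.01, and the middle of the distribution ran from -0.50 at the lower quartile to 0.43 at the upper. Scaling both libraries by the summed FPKM of 24 actin unigenes, 963 in FBS and 1403 in EFS, moves every ratio up by 0.54 on the log2 scale. A negative median smaller in size than 0.54 thus changes sign with that scaling. With that scaling 1980 loci were higher and 445 lower, so that higher loci made up 81.6% of those past 2-fold, against 44.9% without it. All directions below are therefore relative to total FPKM, and the values that follow are as deposited. Counts of list members below are to be read beside the 9.34% of all loci that were higher and the 11.5% that were lower.

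**Figure D1:**
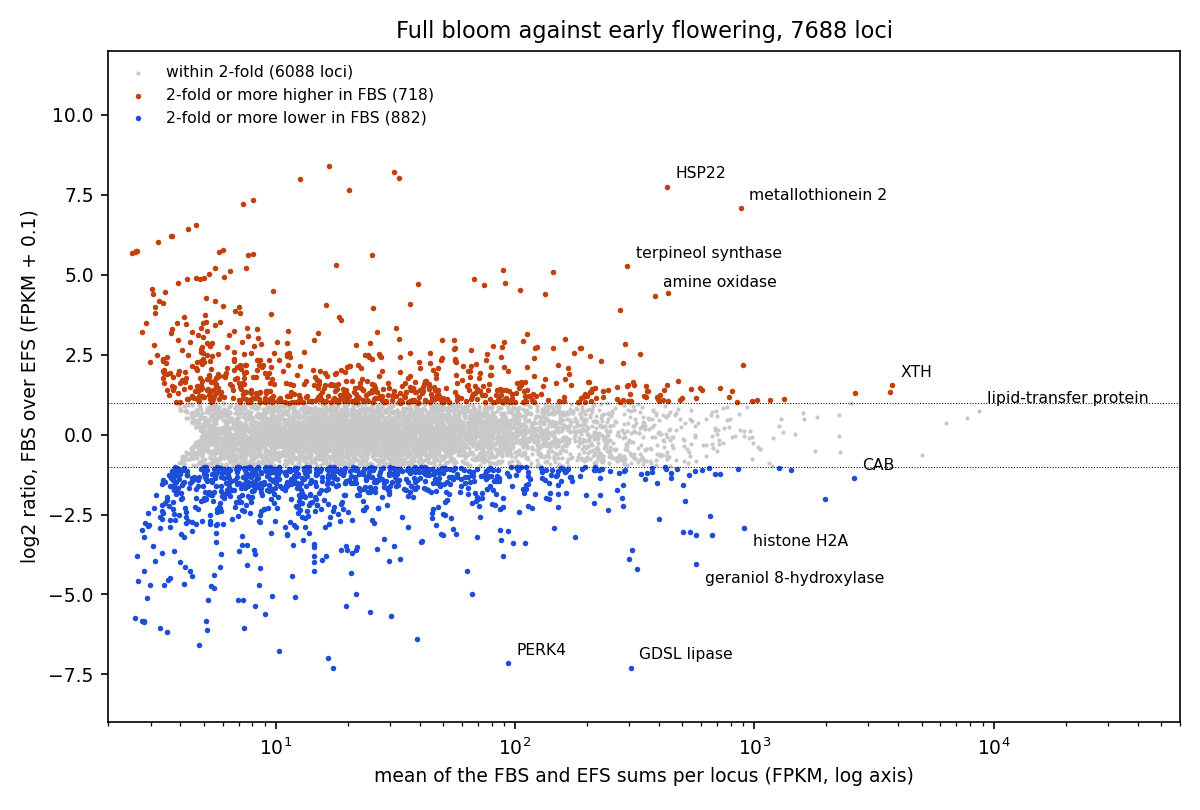
Log2 ratio of FBS over EFS (vertical axis, FPKM + 0.1) against the mean of the FBS and EFS sums of each locus (horizontal axis, FPKM, log scale). Each point is 1 of 7688 loci: 718 are 2-fold or more higher in FBS (orange), 882 are 2-fold or more lower (blue) and 6088 are in between (grey), and the dotted lines mark a 2-fold ratio.

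Relative depth was estimated at 0.927 for FBS over EFS from the most common ratio of unigenes with 0.2 to 2 FPKM in both libraries. Of 18204 such unigenes, 742 lay in that peak. FPKM summed to 725419 in FBS and 732647 in EFS. Low loci spread more widely than others. At a mean level from 2.5 to 10 FPKM, 255 of 1755 loci (14.5%) were higher and 337 (19.2%) lower. From 10 to 50 FPKM, 252 of 3855 loci (6.54%) were higher and 347 lower. Among the 467 loci at a mean of 200 FPKM or more, 14.1% were higher and 11.6% lower. In 5296 loci (68.9%) the same unigene had the largest share in both libraries, and in the rest the leading unigene changed. The call depends on small differences near the threshold: At1g15740, an F-box protein, had 71.0 FPKM in FBS and 35.5 FPKM in EFS and just missed 2-fold.

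Loci past 2-fold differed in the stage of their highest level. Of the 718 loci higher in FBS, 402 had their highest level of the 5 stages from YA to SFS in FBS itself, 233 in SFS, 41 in YA and 42 in VCA. Of the 882 lower loci, 307 were highest in EFS, 293 in VCA, 239 in YA and 43 in SFS. These counts describe loci that were chosen by their FBS and EFS levels. Over all 7688 loci, the buds YA and VCA held the highest level of 1992 and 2173 loci. FBS held that of 1329, against 864 for EFS.

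The broad functional classes of KOG did not move alike. Secondary metabolism had large shares on both sides, with 43 of 235 loci (18.3%) higher and 52 (22.1%) lower. Defense likewise had 23 of 127 loci (18.1%) higher and 28 lower. Cell wall and membrane loci lay mostly on the lower side, with 20 of 208 (9.62%) higher and 49 (23.6%) lower. Translation and ribosome had the lowest share of higher loci, 10 of 389 (2.57%), beside 43 lower (11.1%), and its median log2 ratio was -0.34. Transcription had 65 of 551 loci (11.8%) higher and 47 (8.53%) lower. RNA processing moved little, with 14 of 313 loci (4.47%) higher and 18 (5.75%) lower.

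The labelled tissue was checked against markers of floral organs. The petal and stamen gene *PISTILLATA* (At5g20240) had 784 FPKM in FBS and 825 FPKM in EFS. The *APETALA3* locus, its partner, had 84.7 FPKM in FBS and 131 FPKM in EFS. *SEPALLATA3* (At1g24260), which acts in all whorls, had 94.5 FPKM in FBS and 71.6 FPKM in EFS. These floral organ genes were thus present in both libraries and stayed within 2-fold. *AGAMOUS* (At4g18960), the stamen and carpel gene, had 10.04 FPKM in FBS and 29.0 FPKM in EFS, with 150 FPKM in YA and 146 FPKM in VCA. The carpel gene *CRABS CLAW* was near 0, with 0.14 FPKM in FBS and 0.52 FPKM in EFS, and *SPATULA* (At4g36930) had 11.9 FPKM in FBS and 6.60 FPKM in EFS. *INNER NO OUTER*, an ovule gene, had no unigene.

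Both green tissue markers and some anther markers were lower at full bloom. The 7 markers of the tapetum, the layer that feeds and coats pollen, summed to 0.84 FPKM in FBS and 33.0 FPKM in EFS. TKPR1 had no unigene, CYP704B1 and LAP3 were at 0 in both stages, and CYP703A2 and ACOS5 were at 0 in FBS and below the floor of 5 FPKM in EFS. LAP5 or LAP6 had 0.30 FPKM in FBS and 14.3 FPKM in EFS. MS2 (At3g11980), the fatty acyl reductase of the pollen wall, had 0.54 FPKM in FBS and 16.5 FPKM in EFS, after 49.7 FPKM in YA and 51.8 FPKM in VCA. The 7 markers of mature pollen summed to 3941 FPKM in FBS and 7658 FPKM in EFS, with 2 of them lower and the pollen allergen at 0 in both. The 2 lower markers were the pectin enzymes, polygalacturonase and pectinesterase, while profilin, the pollen-specific LRX proteins, LAT52 and SF3 stayed within 2-fold. Chlorophyll a-b binding proteins and the Rubisco small chain summed to 5336 FPKM in FBS and 12542 FPKM in EFS, and both were lower. In bulk samples such as these, fewer cells of a type and less RNA per cell cannot be told apart.

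**Figure D2:**
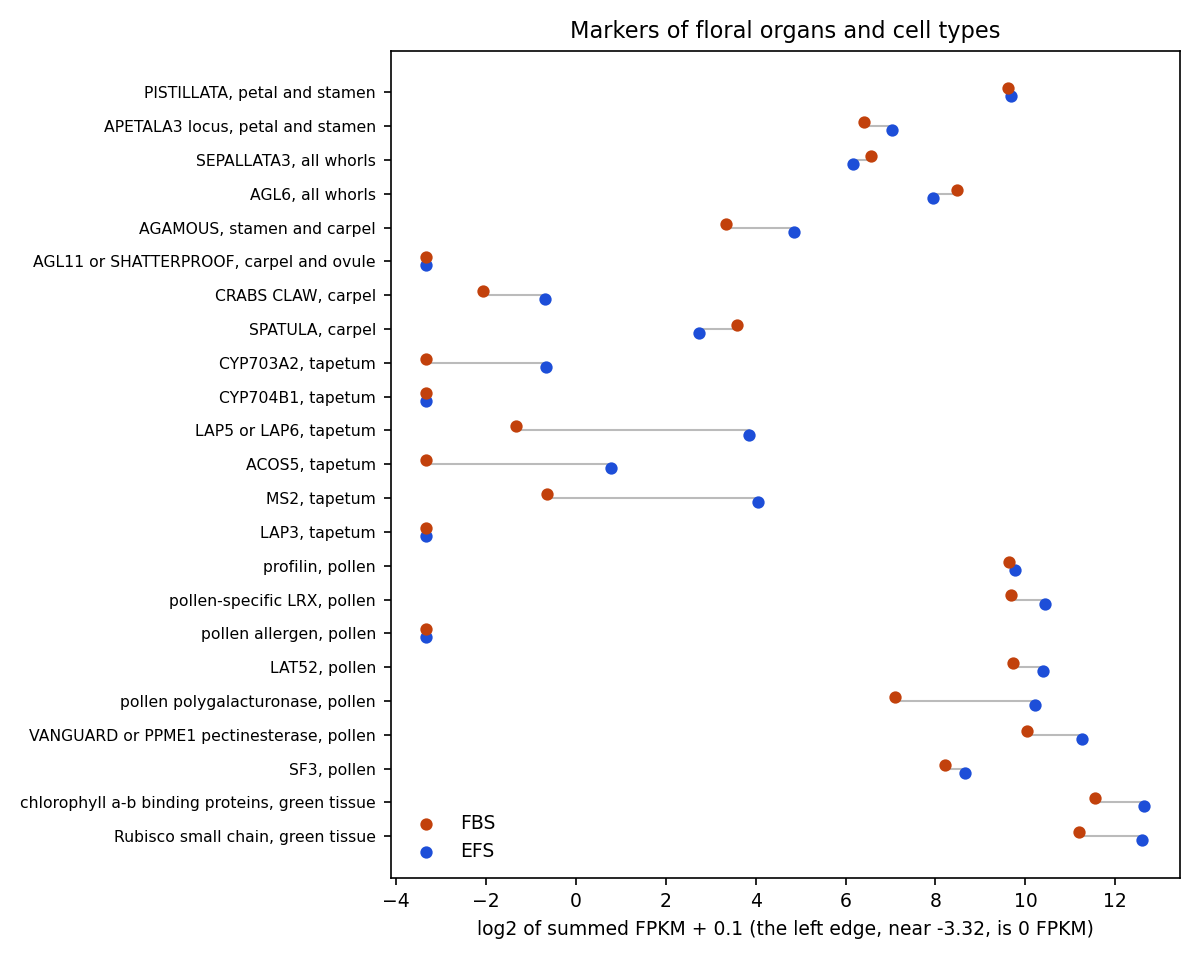
Summed FPKM of each organ or cell type marker in FBS (orange) and EFS (blue), as log2(FPKM + 0.1) on the horizontal axis, with 1 row per marker and a grey line between the stages. Petal and stamen markers stayed within 2-fold, while *AGAMOUS*, the tapetum markers MS2 and LAP5 or LAP6, the pollen polygalacturonase, the VANGUARD or PPME1 pectinesterase and both green tissue markers were 2-fold or more lower in FBS. *CRABS CLAW*, CYP703A2 and ACOS5 were below 5 FPKM in both stages.

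The genes with the highest ratios at full bloom included a chaperone, metal-binding proteins and an aldehyde dehydrogenase. HSP22 (At4g10250), a small heat shock protein, had 862 FPKM in FBS and 3.91 FPKM in EFS, while it had 81.5 FPKM in YA, 14.3 FPKM in SFS and 60.2 FPKM in FBD. A metallothionein (At3g09390), which binds metal ions, had 1746 FPKM in FBS and 12.9 FPKM in EFS, while it had 329 FPKM in YA and 483 FPKM in VCA. Its leading unigene differed between the libraries. CL30441.Contig1 held 78.9% of the EFS sum and CL16373.Contig2 held 84.8% of the FBS sum. HIPP26 (At5g17450), another metal-binding protein, had 131 FPKM in FBS and 4.39 FPKM in EFS. HSP22 and the metallothionein thus both had lower levels in EFS than in YA or FBS. The mitochondrial aldehyde dehydrogenase ALDH2B7 (At1g23800) had 174 FPKM in FBS and 4.85 FPKM in EFS. A heme-binding protein (At3g10130) had 62.1 FPKM in FBS and 0.11 FPKM in EFS, and the histone methyltransferase ATX4 (At4g27910) had 65.5 FPKM in FBS and 0.15 FPKM in EFS. ATX4 also varied among the other stages, with 81.5 FPKM in YA, 1.29 FPKM in VCA and 146 FPKM in SFS. A GDSL lipase (At5g03820) had 33.5 FPKM in FBS and was listed at 0 in each of the other 5 libraries. A locus named for ribosomal protein L12 (At2g37190) had 25.3 FPKM in FBS and was listed at 0 in EFS. The locus At5g04120 had 40.3 FPKM in FBS and 0.10 FPKM in EFS, but Swiss-Prot names it as the transcription factor WER and KOG as a phosphoglycerate mutase.

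The genes with the lowest ratios had been highest either in the bud or at early flowering. A GDSL lipase (At5g33370) had 3.78 FPKM in FBS and 606 FPKM in EFS, after 1639 FPKM in YA and 1962 FPKM in VCA. The receptor-like kinase PERK4 (At2g18470) had 1.22 FPKM in FBS and 186 FPKM in EFS, with 561 FPKM in VCA. Both were low in SFS too, with 32.9 FPKM for the lipase and 2.35 FPKM for the kinase. Peroxidase 42 (At4g21960) had 1.07 FPKM in FBS and 59.3 FPKM in EFS, and a soluble pyrophosphatase (At2g46860) had 0.85 FPKM in FBS and 38.5 FPKM in EFS. Others of these loci had their highest level at early flowering. The aspartic protease ASPG2 (At1g09750) had 3.98 FPKM in FBS and 128 FPKM in EFS, with 91.3 FPKM in VCA. Beta-amylase (At4g15210), which breaks down starch, had 0.12 FPKM in FBS and 34.7 FPKM in EFS, with 8.28 FPKM in YA and 3.17 FPKM in VCA. Cell number regulator 2 (At1g49030) had 0.83 FPKM in FBS and 77.3 FPKM in EFS, with 11.1 FPKM in VCA and 0 in SFS. The other loci of the lowest 12 were an importin (At3g05720), a beta-glucosidase (At3g18070), a Rab regulator (At5g09550), a U-box protein (At5g35380) and RTM2 (At2g27140), and they ranged from 20.5 to 48.5 FPKM in EFS and from 0.09 to 1.22 FPKM in FBS.

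The most abundant transcripts were shared by both stages. A pair of lipid-transfer proteins, which carry lipids to the cell surface, led both libraries: At5g59320 had 10802 FPKM in FBS and 6545 FPKM in EFS, and At5g59310 had 9193 FPKM in FBS and 6373 FPKM in EFS. A second metallothionein (At5g02380) had 7115 FPKM in FBS and 5555 FPKM in EFS. The plastid-lipid-associated protein (At4g04020), which coats carotenoid bodies in petal plastids, had 3923 FPKM in FBS and 6085 FPKM in EFS. None of these 4 reached a 2-fold ratio. The sugar transporter SWEET3b (At5g53190) had 3737 FPKM in FBS and 1532 FPKM in EFS. Sorbitol dehydrogenase (At5g51970), a sum over 83 unigenes, had 780 FPKM in FBS and 3152 FPKM in EFS. At3g16460 had 5293 FPKM in FBS and 2098 FPKM in EFS, but the locus is named dehydrin Rab18 in Swiss-Prot and a jacalin lectin in KOG, so its sum may hold unlike genes.

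Of 18 loci for expansins and xyloglucan enzymes, which loosen and rebuild the wall as cells expand, 5 were higher and 5 lower. Their FPKM summed to 11224 in FBS and 5563 in EFS, and the median log2 ratio was 0.59, which reached -0.40 under another setting. The largest part of the sum was a xyloglucan endotransglucosylase (XTH, At5g13870), with 5632 FPKM in FBS and 1929 FPKM in EFS. It had 306 FPKM in YA and 241 FPKM in VCA, and 5712 FPKM in SFS. Expansin A8 (At2g40610) had 1876 FPKM in FBS and 1339 FPKM in EFS. Expansin B3 (At4g28250) was lower, with 4.14 FPKM in FBS and 62.1 FPKM in EFS. The 5 lower loci had at most 246 FPKM in EFS (expansin A11, At1g20190, with 98.2 FPKM in FBS).

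Pectin enzymes, which trim or cut the pectin between cells, were mostly on the lower side. Of 52 loci, 23 were lower and 4 higher, and the median log2 ratio was -0.76 (-0.22 with actin scaling). Their FPKM summed to 6713 in FBS and 12770 in EFS. PPME1 (At5g61680), a pectinesterase of growing pollen tubes in *Arabidopsis*, had 34.6 FPKM in FBS and 320 FPKM in EFS. An inhibitor of pectinesterase (At1g55770) had 7.37 FPKM in FBS and 74.7 FPKM in EFS. The most abundant members changed less: At4g33230 had 810 FPKM in FBS and 1492 FPKM in EFS, and pectinesterase 4 (At2g47030) had 903 FPKM in FBS and 1171 FPKM in EFS. Pectinesterase 6 (At1g23200) was higher, with 11.9 FPKM in FBS and 0.12 FPKM in EFS. The pollen polygalacturonase marker had 136 FPKM in FBS and 1195 FPKM in EFS, and the VANGUARD or PPME1 marker 1054 FPKM in FBS and 2456 FPKM in EFS. Both markers are sums over loci that include members of this list, PPME1 and pectinesterase 4 among them, so they are not separate from it. The part of pollen in the lower level of pectin enzymes was not tested.

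Other wall and water genes were lower in a minority of members. Of 17 cellulose and callose synthases, 5 were lower and 1 higher, with a median log2 ratio of -0.48 that turned to 0.05 with actin scaling. Callose synthase 5 (At2g13670), which forms the callose wall around developing pollen, had 0.16 FPKM in FBS and 6.67 FPKM in EFS. Of 16 aquaporins, the water channels of cell membranes, 4 were lower and 1 higher, with a median of -0.58. The abundant aquaporins moved little, with 890 FPKM in FBS and 926 FPKM in EFS for PIP1-2 (At4g23400) and 914 FPKM in FBS and 832 FPKM in EFS for TIP1-1 (At2g36830). Wax, cutin and GDSL lipase loci were spread widely, with 12 higher and 19 lower of 56. ECERIFERUM 1 (At2g37700), an enzyme of surface wax, had 1125 FPKM in FBS and 568 FPKM in EFS.

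Of 16 histone loci, 10 were lower and 0 higher, with a median log2 ratio of -1.06, and their FPKM summed to 3143 in FBS and 8094 in EFS. In the bud the same sum was 24463 FPKM in YA and 29157 FPKM in VCA. Histone H3.2 (At3g27360) had 33.3 FPKM in FBS and 612 FPKM in EFS, and a second H3.2 locus (At5g65360) had 46.8 FPKM in FBS and 570.0 FPKM in EFS. Histone H2A (At5g02560) had 213 FPKM in FBS and 1603 FPKM in EFS. These histones package newly copied DNA. The near-identical copies of a histone can share reads, so values of single histone loci are uncertain. Of 37 loci for the cell cycle and DNA replication, 11 were lower, 2 were higher and the others lay within 2-fold, with a median of -0.41 that turned to 0.13 with actin scaling. Ribonucleotide reductase (At3g27060), which makes the building blocks of DNA, had 2.23 FPKM in FBS and 26.7 FPKM in EFS. MCM7 (At4g02060) and MCM2 (At1g44900), parts of the helicase that opens DNA for copying, had 3.94 FPKM and 2.28 FPKM in FBS, against 23.4 FPKM and 12.5 FPKM in EFS. Cyclin D1-1 (At1g70210), which starts the cell cycle, had 0.19 FPKM in FBS and 5.46 FPKM in EFS, and cyclin B2-2 (At4g35620) was listed at 0 in FBS and had 7.05 FPKM in EFS.

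Of 12 tubulins and actins, 7 were lower and 1 higher, with a median log2 ratio of -1.13 (-0.59 with actin scaling). Alpha tubulin (At5g19770) had 412 FPKM in FBS and 958 FPKM in EFS. Of 116 cytosolic ribosomal protein loci, 20 (17.2%) were lower, 5 were higher and 91 lay within 2-fold, beside 11.5% of all loci that were lower. Their median of -0.72 (-0.18 with actin scaling) stood below that of all loci, and their FPKM summed to 19364 in FBS and 30505 in EFS, after 47103 in YA and 60027 in VCA. The sum was 10404 FPKM in SFS. Ribosomal protein P1 (At5g47700) had 577 FPKM in FBS and 823 FPKM in EFS, while L10 (At1g26910) had 730.0 FPKM in FBS and 523 FPKM in EFS.

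**Figure D3:**
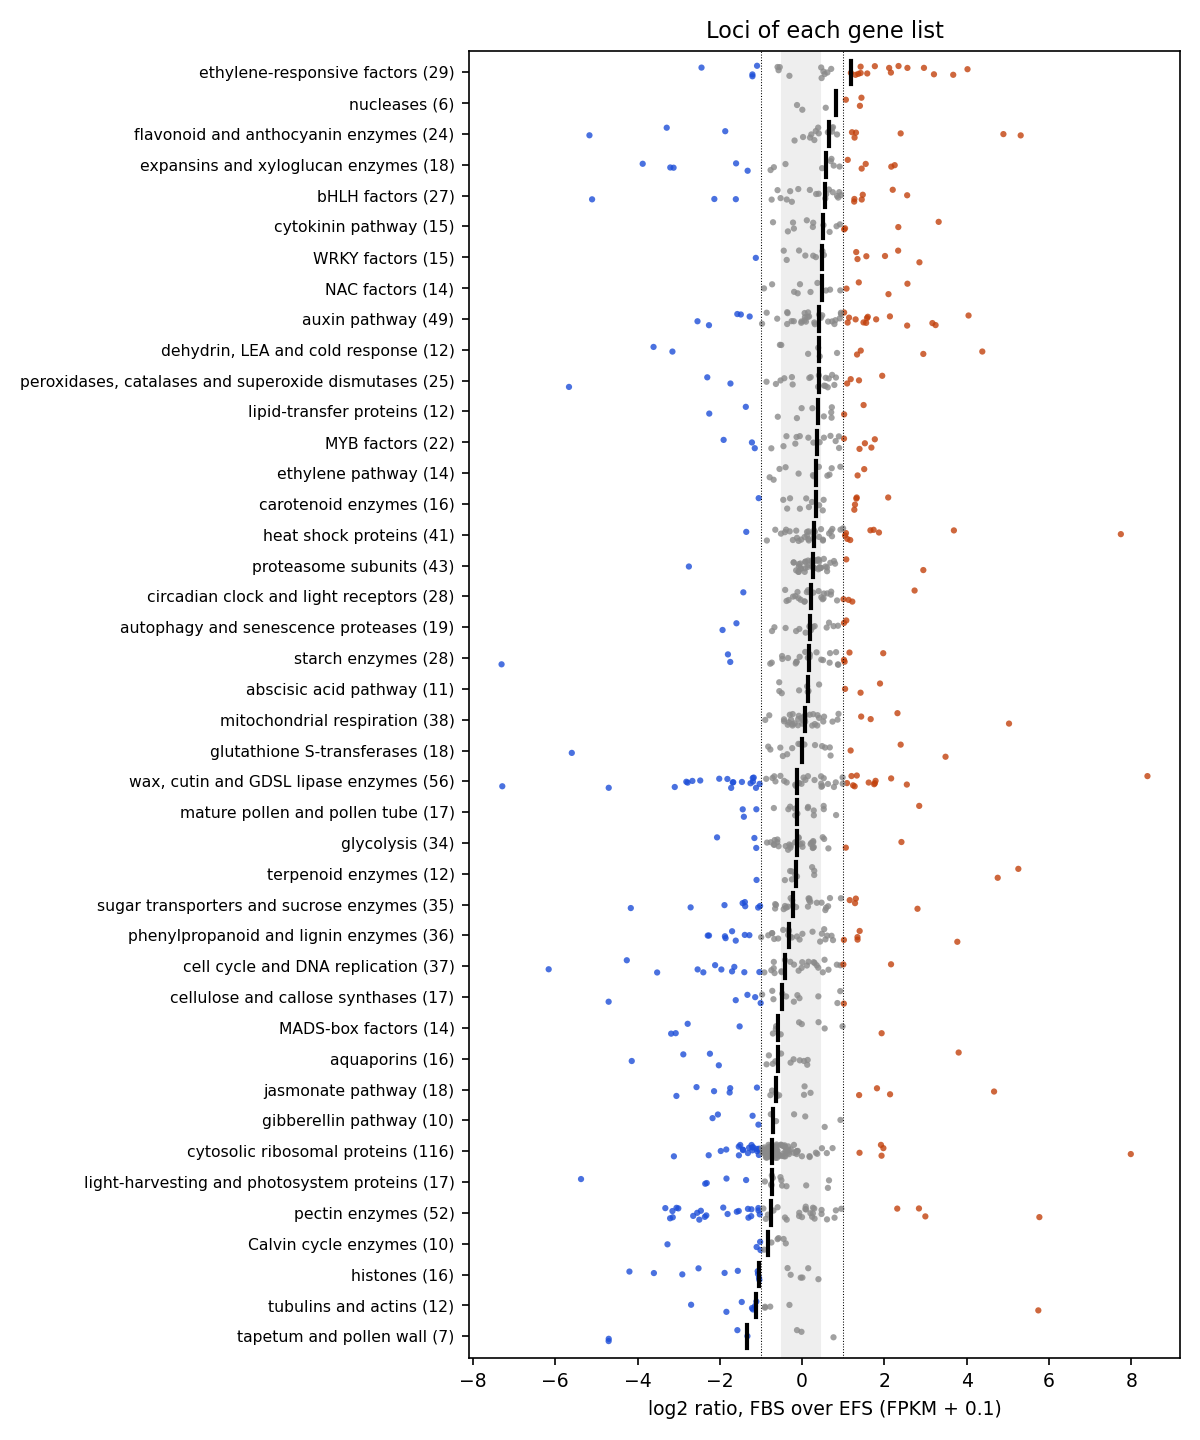
Log2 ratio of FBS over EFS (horizontal axis, FPKM + 0.1) for the loci of each gene list with 6 or more kept loci, with 1 row per list and the number of loci in brackets. Points are loci (orange 2-fold or more higher in FBS, blue 2-fold or more lower, grey between), black bars are list medians, and the grey band spans the quartiles of all 7688 loci, -0.50 to 0.43. Ethylene-responsive factors have the highest median, 1.19, and the tapetum and pollen wall list the lowest, -1.33.

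Of 17 light-harvesting and photosystem loci, 5 were lower, 0 were higher and 12 lay within 2-fold, with a median log2 ratio of -0.74 (-0.19 with actin scaling). A chlorophyll a-b binding protein (CAB, At1g29930) had 1466 FPKM in FBS and 3765 FPKM in EFS, but 5916 FPKM in VCA and 6704 FPKM in SFS. Protochlorophyllide reductase (At5g54190), which makes chlorophyll, had 3.14 FPKM in FBS and 36.1 FPKM in EFS. Of 10 Calvin cycle loci, 4 were lower, 0 were higher and 6 lay within 2-fold, with a median of -0.83 (-0.30 with actin scaling). Full bloom was thus the lowest of the 5 stages for this CAB locus. The chlorophyll a-b binding marker overlaps the light-harvesting list. The Rubisco small chain marker, with 2339 FPKM in FBS and 6185 FPKM in EFS, lies mostly outside the Calvin cycle list. That list summed to 888 FPKM in FBS and 1429 FPKM in EFS. The share of green organs in each library cannot be told apart from the expression of these genes.

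Of 38 loci of mitochondrial respiration, 4 (10.5%) were higher, near the 9.34% of all loci, and 0 were lower, with a median log2 ratio of 0.06. Succinate dehydrogenase, which links the citric acid cycle with the respiratory chain, gave 3 of the 4. Its flavoprotein subunit SDH1-1 (At5g66760) had 791 FPKM in FBS and 292 FPKM in EFS. Its iron-sulfur subunit SDH2-2 (At5g40650) had 728 FPKM in FBS and 229 FPKM in EFS. A second flavoprotein locus (At2g18450) had 10.4 FPKM in FBS and 0.22 FPKM in EFS. Among 34 glycolysis loci, 2 were higher and 3 lower. The starch enzymes had 4 higher (14.3%) and 3 lower (10.7%) of 28. Beta-amylase 1 (At3g23920) had 787 FPKM in FBS and 354 FPKM in EFS, whereas beta-amylase 3 (At4g17090) had 421 FPKM in FBS and 468 FPKM in EFS. Of 35 loci for sugar transport and sucrose enzymes, 4 were higher (11.4%) and 8 lower (22.9%). Sucrose synthase 7 (At1g73370) had 0.82 FPKM in FBS and 16.4 FPKM in EFS, and sugar transport protein 10 (At3g19940) had 84.0 FPKM in FBS and 311 FPKM in EFS.

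Of 12 terpenoid loci, 2 were higher (16.7%), 1 was lower (8.33%) and 9 lay within 2-fold. Alpha-terpineol synthase (At3g25830), which makes a volatile monoterpene alcohol, had 576 FPKM in FBS and 15.0 FPKM in EFS. A second terpineol synthase locus (At2g24210) had 175 FPKM in FBS and 6.39 FPKM in EFS. Both were higher again in SFS, with 1555 FPKM and 449 FPKM. As members of 1 enzyme family they may share reads. Nerolidol synthase 1 (At1g61680), a terpene synthase that KEGG names linalool synthase, had 676 FPKM in FBS and 803 FPKM in EFS, but 2.25 FPKM in YA, 1.69 FPKM in VCA and 3.29 FPKM in SFS. Its transcript was thus found at both open stages at similar levels and was near 0 elsewhere. A cytochrome P450 named geraniol 8-hydroxylase in Swiss-Prot (At2g45550) had 64.8 FPKM in FBS and 1080.5 FPKM in EFS. A carboxyl methyltransferase (At5g66430), named for salicylate in Swiss-Prot and for jasmonate in KEGG, had 3.51 FPKM in FBS and 56.2 FPKM in EFS.

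Tyrosine/DOPA decarboxylase 2 (TYDC2, At4g28680), which turns tyrosine into tyramine, had 281 FPKM in FBS and 8.19 FPKM in EFS. A cytochrome P450 (At5g05260), named tyrosine N-monooxygenase in Swiss-Prot and phenylalanine N-monooxygenase in KEGG, had 201 FPKM in FBS and 8.71 FPKM in EFS. A primary amine oxidase (At1g62810), which turns amines into aldehydes, had 734 FPKM in FBS and 36.2 FPKM in EFS. These 3 loci were not a list. The N-monooxygenase, the amine oxidase, the hydroxylase and the methyltransferase were picked after their values were seen. So were PPME1, ribonucleotide reductase, both MCM loci, protochlorophyllide reductase, SDH2-2, ERF113 and ERF114.

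**Figure D4:**
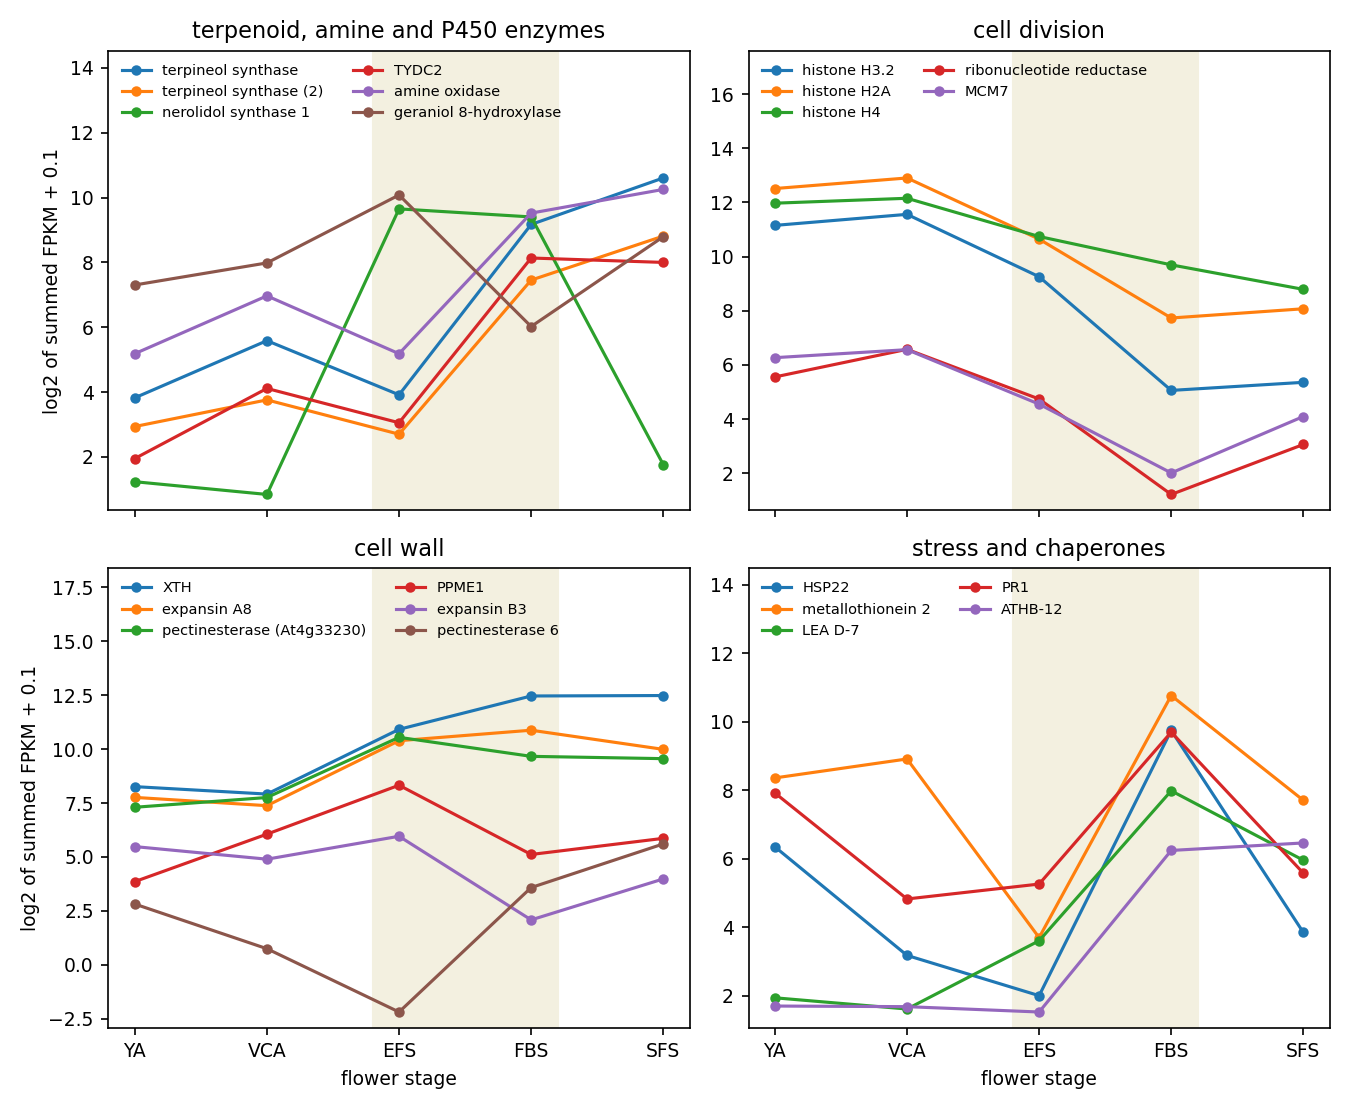
Level of selected loci, as log2 of summed FPKM + 0.1 (vertical axis), at 5 flower stages in their order of development (horizontal axis), with 1 line per locus and EFS and FBS shaded. Nerolidol synthase 1 is high in EFS (803 FPKM) and FBS (676 FPKM) alone, the replication genes and histones drop before and between these stages, and HSP22 peaks in FBS at 862 FPKM.

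Of 24 flavonoid and anthocyanin loci, 6 were higher and 3 lower, and the median log2 ratio was 0.64. Dihydroflavonol reductase (At5g42800), on the way to anthocyanins, had 867 FPKM in FBS and 515 FPKM in EFS. Chalcone synthase (At5g13930), the first enzyme of the route, had 800.4 FPKM in FBS and 518 FPKM in EFS. A rhamnosyltransferase (At5g65550) had 34.9 FPKM in FBS and 0.78 FPKM in EFS. The regulators MYB113 (At1g66370) and MYB114 (At1g66380), which turn on anthocyanin genes in *Arabidopsis*, had 101 FPKM and 72.6 FPKM in FBS, against 35.1 FPKM and 21.2 FPKM in EFS. The locus At4g34850, named chalcone synthase A but known in *Arabidopsis* as LAP5 of the pollen wall, had 0.30 FPKM in FBS and 14.3 FPKM in EFS.

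Of 16 carotenoid loci, 5 were higher and 1 lower, with a median log2 ratio of 0.33. The locus At5g05320, named zeaxanthin epoxidase in Swiss-Prot but salicylate hydroxylase in KEGG, had 271 FPKM in FBS and 63.5 FPKM in EFS. A second zeaxanthin epoxidase locus (At5g67030), which both sources name so, had 180.1 FPKM in FBS and 127 FPKM in EFS and stayed within 2-fold, and it was picked after its values were seen. The cleavage enzymes CCD1 (At3g63520) and CCD4 (At4g19170), which break carotenoids into volatile pieces, had 428 FPKM and 80.2 FPKM in FBS, against 177 FPKM and 31.9 FPKM in EFS. Beta-carotene hydroxylase 2 (At4g25700) had 488 FPKM in FBS and 598 FPKM in EFS. Phenylpropanoid and lignin enzymes had 5 higher and 8 lower of 36. Caffeic acid O-methyltransferase (At5g54160) had 192 FPKM in FBS and 506 FPKM in EFS, with 1108 FPKM in VCA.

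Transcription factors of the ethylene-responsive (ERF) family had the highest median of all lists in the main setting. Of 29 loci, 15 were higher and 4 lower, beside 9.34% and 11.5% of all loci, and the median log2 ratio was 1.19. Across the settings that median ran from 0.66 to 1.73. ABR1 (At5g64750), an ERF that represses abscisic acid responses in *Arabidopsis*, had 11.4 FPKM in FBS and 0.61 FPKM in EFS, with 0.42 FPKM in YA and 13.5 FPKM in SFS. ERF2 (At4g17500) had 34.3 FPKM in FBS and 2.60 FPKM in EFS, ERF113 (At5g13330) had 48.0 FPKM in FBS and 5.12 FPKM in EFS, and ERF114 (At5g61890) had 98.5 FPKM in FBS and 12.6 FPKM in EFS. The drought-related factor DREB2B (At5g05410) had 101 FPKM in FBS and 37.7 FPKM in EFS. The most abundant member, RAP2-12 (At1g53910), which senses low oxygen in *Arabidopsis*, moved least of those named, with 226 FPKM in FBS and 164 FPKM in EFS.

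Of 14 loci for MADS-box factors, which specify floral organs, 4 were lower and 1 higher, with a median log2 ratio of -0.58 that reached 0.40 under another setting. SVP (At2g22540), a repressor of flowering in *Arabidopsis*, had 1.12 FPKM in FBS and 10.2 FPKM in EFS. AGL6 (At2g45650) had 359 FPKM in FBS and 245 FPKM in EFS. The locus At1g22130, named AGL11 in Swiss-Prot, had 1.35 FPKM in FBS and 13.1 FPKM in EFS. The *Arabidopsis* locus taken as the marker for AGL11 or SHATTERPROOF is another one, and it was at 0 FPKM in FBS and in EFS. The study designed primers for quantitative PCR on 3 of the MADS unigenes and on the ABR1-type ERF, and they are shown because they mark which transcripts these are. The types are those of the Swiss-Prot matches in the deposited table, and the study's text pairs the MADS unigenes with gene names in another order. For the ERF the primer name gives a cluster and no contig. CL25724.Contig1 has the ABR1 match, while CL25724.Contig2 has no Swiss-Prot match. The primers are written 5′ to 3′, and the second ERF primer carries the same name as the first in the study's list.
Unigene7086-qF (AGL6-type): cctaaactttcaaggcaacacaa
Unigene7086-qR (AGL6-type): ctacgacgaggagccacacaa
CL28019.Contig1-qF (SEPALLATA3-type): tagggcttctactcttgctttga
CL28019.Contig1-qR (SEPALLATA3-type): gttatggaggaccagaaccgaa
CL7507.Contig2-qF (PISTILLATA-type): tggaaatgaacgggaatgtgag
CL7507.Contig2-qR (PISTILLATA-type): ctgtagattaggctggattgggt
CL25724-qF (ABR1-type): taaggttcagaggaagcagagcc
CL25724-qF, second (ABR1-type): tgtgaaactgtcgtcaaaaggct
As single unigenes, the AGL6-type had 250.3 FPKM in FBS and 154 FPKM in EFS, the SEPALLATA3-type 94.4 FPKM in FBS and 71.6 FPKM in EFS, and the PISTILLATA-type 702 FPKM in FBS and 684 FPKM in EFS. The 2 contigs of the ERF cluster had 8.68 FPKM and 4.41 FPKM in FBS, against 0.49 FPKM and 0.48 FPKM in EFS. The MADS unigenes thus moved by less than 2-fold and both contigs of this cluster by more.

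**Figure D5:**
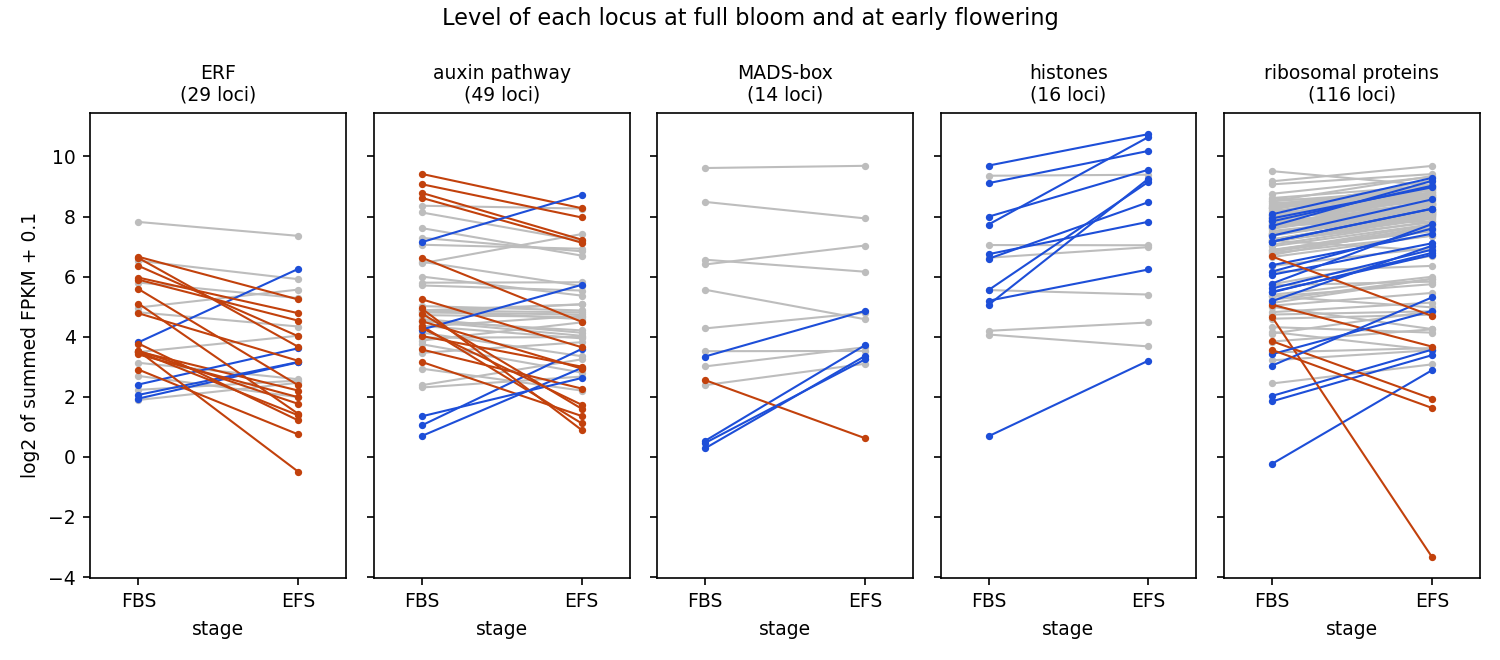
Level of every kept locus of 5 lists in FBS (left in each panel) and EFS (right), as log2 of summed FPKM + 0.1 on the vertical axis, with a line per locus (orange 2-fold or more higher in FBS, blue 2-fold or more lower, grey between). Of 29 ERF loci 15 are orange, of 16 histone loci 10 are blue, and most of the 116 ribosomal protein loci slope the same way with small steps.

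Other transcription factor families had more higher than lower members, where 9.34% of all loci were higher and 11.5% lower. NAC factors, several of which drive senescence, had 4 higher and 0 lower of 14. NAC100 (At5g61430) had 62.4 FPKM in FBS and 10.5 FPKM in EFS, and a NAM-B2-type factor (At5g13180) had 147 FPKM in FBS and 34.1 FPKM in EFS. WRKY factors, which act in defense and senescence, had 6 higher and 1 lower of 15, although the most abundant, named WRKY19 in Swiss-Prot but a protein of unknown function in KOG (At5g64550), had 106 FPKM in FBS and 100.3 FPKM in EFS. Basic helix-loop-helix (bHLH) factors had 6 higher (22.2%) and 3 lower (11.1%) of 27, and MYB factors 5 higher (22.7%) and 3 lower (13.6%) of 22. The lower shares of both families were near that of all loci. The bHLH14 locus (At4g00870), a repressor of jasmonate responses in *Arabidopsis*, had 0.07 FPKM in FBS and 5.75 FPKM in EFS. ATHB-12 (At3g61890), a homeobox factor of water stress named after its values were seen, had 75.8 FPKM in FBS and 2.78 FPKM in EFS. Clock and light receptor genes had 4 higher (14.3%) and 1 lower of 28, with phytochrome E (At4g18130) at 11.01 FPKM in FBS and 1.57 FPKM in EFS. The study's text says that the stages were sampled simultaneously but gives no time of day, and the part of the time of day was not tested.

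Hormone lists differed. Of 49 auxin loci, 14 were higher and 5 lower, with a median log2 ratio of 0.41. IAA29 (At4g32280), an auxin response repressor, had 30.6 FPKM in FBS and 1.76 FPKM in EFS. GH3.6 (At5g54510), which conjugates auxin to amino acids and was picked after its values were seen, had 27.2 FPKM in FBS and 2.94 FPKM in EFS. The growth-related 10A5 (At3g09870) had 685 FPKM in FBS and 310.4 FPKM in EFS. Ethylene synthesis and signaling had 2 higher (14.3%) and 0 lower of 14, and both were named in Swiss-Prot for ACC oxidase or a homolog of it. ACC oxidase (At1g05010), the last step of ethylene synthesis, had 1162 FPKM in FBS and 456 FPKM in EFS, with 98.7 FPKM in VCA and 1132 FPKM in SFS. An ACC oxidase homolog (At1g06650), which KEGG names a benzoxazinone-glucoside dioxygenase, had 434 FPKM in FBS and 152 FPKM in EFS. The cytokinin list had 4 higher and 0 lower of 15. Cytokinin dehydrogenase 1 (At2g41510), which degrades cytokinin, was among the higher, with 58.2 FPKM in FBS and 5.74 FPKM in EFS. The list was matched by name and also holds pseudo-response regulators such as PRR95 (At5g24470). It shares some loci with the clock and light receptor list. Of 11 abscisic acid loci, 3 were higher and 0 lower. They included the receptors PYL9 (At1g01360), with 28.1 FPKM in FBS and 7.48 FPKM in EFS, and PYL1 (At4g17870), with 40.8 FPKM in FBS and 15.2 FPKM in EFS.

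Of 10 gibberellin loci, 4 were lower and 0 higher, with a median log2 ratio of -0.70 (-0.15 with actin scaling). Gibberellin-regulated proteins 2 (At4g09610) and 6 (At5g15230), small secreted peptides, had 29.0 FPKM and 20.2 FPKM in FBS, against 131 FPKM and 83.9 FPKM in EFS. Of 18 jasmonate loci, 6 were lower and 4 higher, with a median of -0.63 (-0.09 with actin scaling). The 13-lipoxygenase (At3g45140), which starts jasmonate synthesis in plastids, had 108 FPKM in FBS and 901 FPKM in EFS. A 9-lipoxygenase (At1g55020), which feeds other oxylipins, had 143 FPKM in FBS and 5.55 FPKM in EFS. Other lipoxygenase loci, picked after their values were seen, were rarer. Of these, At1g72520 (13-lipoxygenase) had 9.08 FPKM in FBS and a log2 ratio of 1.82, At3g22400 (9-lipoxygenase) had 2.83 FPKM in FBS and 9.74 FPKM in EFS, and At1g67560 had 11.3 FPKM in FBS and 19.4 FPKM in EFS. Neither type thus moved one way. OPR2 (At1g76690), a reductase of the oxylipin route, had 732 FPKM in FBS and 635 FPKM in EFS.

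Heat shock proteins had 9 higher and 1 lower of 41, with a median log2 ratio of 0.29. The abundant HSP80 (At5g56030) had 446 FPKM in FBS and 473 FPKM in EFS and so stayed within 2-fold. Another member of the list (At4g37910) was higher, with a log2 ratio from 2.54 to 4.23 across the settings. Of 12 dehydrin, LEA and cold response loci, 4 were higher and 2 lower, and the sign of their median, 0.41, changed under another setting, down to -0.51. LEA D-7 (At1g52690), which protects cells as they dry, had 254 FPKM in FBS and 12.1 FPKM in EFS, but LEA 76 (At2g18340) had 1.14 FPKM in FBS and 15.1 FPKM in EFS. PR1 (At2g14610), a defense protein picked after its values were seen, had 832 FPKM in FBS and 38.3 FPKM in EFS. Ascorbate peroxidase (At1g07890), which removes hydrogen peroxide, had 1092 FPKM in FBS and 481 FPKM in EFS.

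Of 6 nucleases, a small list, 3 were higher and 0 lower, beside 9.34% and 11.5% of all loci, with a median log2 ratio of 0.82. RNase 1 (At2g02990) had 129 FPKM in FBS and 48.6 FPKM in EFS, and RNase 2 (At2g39780) had 401 FPKM in FBS and 192 FPKM in EFS. The third, At1g68300, is in the list by its Swiss-Prot name alone and had a log2 ratio from 1.37 to 1.98 across the settings. Of 19 autophagy genes and senescence proteases, 2 (10.5%) were higher and 2 lower, near the 9.34% of all loci that were higher. The higher were ATG8f (At3g60640), a coat protein of autophagosomes, with 368 FPKM in FBS and 182 FPKM in EFS, and a cysteine proteinase (At4g39090), with 384 FPKM in FBS and 183 FPKM in EFS. Both continued upward in level in SFS, at 549 FPKM and 822 FPKM. Proteasome subunits had 2 higher (4.65%, below the share of all loci) and 1 lower of 43, with a median of 0.27, and 26S regulatory subunit 7 (At1g53750) had 283 FPKM in FBS and 166 FPKM in EFS. Peroxidases, catalases and superoxide dismutases had 4 higher and 3 lower of 25, and glutathione S-transferases 3 higher and 1 lower of 18.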

How the data were processed

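Floral organs at 6 stages gave 1 library each. The authors assembled the reads with Trinity without a reference genome, clustered contigs into unigenes, matched these to protein databases and deposited FPKM per unigene, calculated with RSEM, to 2 decimals. FPKM corrects for length and mapped reads; read numbers and tool versions were not stated, so the depth behind a value is unknown.

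FPKM was summed per *Arabidopsis* locus, loci with a sum of 5 or more in FBS or EFS were kept, and log2(sum + 0.1) was compared at 2-fold (Python 3.11.15, numpy 2.4.6, pandas 2.3.3, matplotlib 3.10.9). A run on simulated data checked the code only. It used loci well above the floor, little noise and changes larger than 2-fold, so it cannot give the error of a call in these libraries. Gene lists were matched by the Swiss-Prot name of a locus, taken from its highest unigene that has such a match. KEGG and KOG names are those of the highest unigene of the locus, which can be another one. Named loci were the 12 highest and 12 lowest ratios with a sum of 20 or more, the 10 most abundant, and up to 4 loci per list (the 2 largest ratios and the 2 highest sums). Members, lists and rules were chosen with earlier results of these data known, and list patterns were corrected after values were seen. Alternatives changed the pseudocount, floor, fold, scaling, and the unit of summing.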

Additional observations from a re-analysis of the deposited data

Results flagged for a closer look

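Unigenes that match a Swiss-Prot protein but carry no *Arabidopsis* locus were outside the sums per locus, and 4 of these entries stood out by their level at full bloom over that at early flowering. Defensin-like protein 17, a small antimicrobial peptide, had 27.2 FPKM in FBS and was listed at 0 in EFS. The organ size regulator ARGOS of *Brassica rapa* type had 39.6 FPKM in FBS and 1.26 FPKM in EFS. The alternative oxidase AOX1A, a mitochondrial enzyme that bypasses part of the respiratory chain, had 153 FPKM in FBS and 12.2 FPKM in EFS. An F-box protein named At1g60180 had 36.6 FPKM in FBS and 3.16 FPKM in EFS. With 1 library per stage, none of these differences was tested.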

How the results depend on the processing

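No paired analysis was possible because each stage has 1 library, and no replicate could be left out. With a floor of 1 FPKM 1463 loci were lower. With actin scaling 1980 were higher and 445 lower, and the median log2 ratio was 0.55. Summed per KEGG orthology number, which leaves 3508 units, 190 were higher and 208 lower. At a 1.5-fold ratio 1479 were higher and 1687 lower, and at 4-fold 227 and 268. The counts under the other settings stayed within 1.5 times, including that of loci with the same leading unigene in both libraries (493 higher, 610 lower), which was added after seeing the data. No called ratio of a named locus changed sign. The sums per Swiss-Prot entry and per KEGG number were not made for named loci or lists. Of 43 lists, 29 kept the sign of their median under every setting applied to them. The others were MADS-box, carpel and ovule, cell cycle, cellulose and callose, dehydrin and LEA, expansin and xyloglucan, glutathione S-transferase, glycolysis, mature pollen, phenylpropanoid, starch, sugar, terpenoid, and wax and cutin. Without replicates, the error of a ratio is unknown, and low loci spread most.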

Other observations

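The unigenes without a locus number make up 1105 Swiss-Prot entries with a sum of 5 FPKM or more in FBS or EFS, of which 110 (9.95%) were 2-fold or more higher in FBS and 176 (15.9%) lower, with a median log2 ratio of -0.06. A second ARGOS entry, of *Arabidopsis* type, had 81.3 FPKM in FBS and 8.17 FPKM in EFS, but 9.10 FPKM in SFS. CURT1D, a protein that bends thylakoid membranes, had 521 FPKM in FBS and 72.8 FPKM in EFS. Lower entries included storage and defense proteins. A mannose-specific lectin of *Galanthus* type had 15.7 FPKM in FBS and 766 FPKM in EFS, and one of *Allium* type was listed at 0 in FBS and had 178 FPKM in EFS. A jasmonate-induced protein of barley type had 0.31 FPKM in FBS and 104 FPKM in EFS, and a Bowman-Birk trypsin inhibitor had 0.82 FPKM in FBS and 51.8 FPKM in EFS. A histone H4 entry had 5.72 FPKM in FBS and 165 FPKM in EFS. Flowering-promoting factor 1 had 0.59 FPKM in FBS and 28.0 FPKM in EFS. The peptide hormone precursor phytosulfokine 2 had 1.64 FPKM in FBS and 58.3 FPKM in EFS and was listed at 0 in the other 4 libraries.

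Some abundant unigenes carry no name at all. In the cluster CL5178, contig 4 had 4297 FPKM in FBS and 839 FPKM in EFS, while contig 5 had 10.7 FPKM in FBS and 1349 FPKM in EFS and contig 2 had 12.6 FPKM in FBS and 1089 FPKM in EFS. Contigs of 1 cluster resemble each other in sequence, so how their reads were divided bears on each value, and this was not tested.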
